A study of Homo sapiens with 30 samples.

Results

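Antisense long RNAs with symbols ending in -AS are described here across 8 RNA libraries of HEK293FT, a line derived from human embryonic kidney. A row of the count table was taken when its symbol ended in -AS, alone or followed by digits, and when its counts summed over the 8 libraries came to at least 100. OIP5-AS1 was left out by the same rule. This gave 416 of the 27630 rows in the table, out of 1121 rows with such a symbol. The other 705 matching rows held fewer than 100 counts, and 111 of those held none. The members were thus chosen by their summed count, which is therefore no finding. Just inside the limit were TBC1D22A-AS1 with 102 counts, EML2-AS1 with 101 and ITFG1-AS1 with 100, and just outside were, among others, CARD8-AS1 and OSTM1-AS1 with 99 each.

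The study mapped RNA and DNA near the nuclear lamina, the protein mesh under the inner nuclear membrane, by means of APEX2, a peroxidase that tags molecules close to it. All 8 libraries came from asynchronous cells that carried, after transfection with Lipofectamine 2000, a construct joining APEX2 to lamin B1. They form 4 groups of 2 libraries each: a nuclear fraction, a cytosolic fraction, RNA from the APEX2 procedure without mention of fixation (native lamina below), and RNA from the same procedure with paraformaldehyde (PFA lamina below). RNA was isolated with Trizol and ribosomal RNA was depleted, per the labels. No library of untransfected or unlabelled cells was analysed here, so the background of the labelling is unknown and both lamina groups are set against the fractions. The labels do not say whether replicates were separate cultures, so p-values measure the spread between these libraries, which may be technical. In bulk RNA, fewer molecules per cell and fewer cells with the RNA cannot be told apart.

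Natural antisense RNAs are transcribed from the strand opposite to a named gene, the sense gene. Many start at the same promoter region and run away from the sense gene, others start inside it or run into its end, and the overlap can let them act on the sense gene's chromatin, transcription, splicing or mRNA stability. As a class, long non-coding RNAs tend to be less abundant and more nuclear than mRNAs.

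The counting ignored strand and gave a read that overlapped several rows to each of them, per the file headers. A read from the sense transcript that falls in an antisense exon was therefore counted for the antisense row, and the 416 rows were divided by what else lies under their exons. In 281 rows (67.5%) at least 1 exonic base was also an exonic base of another row, and in 256 of these the other row was the sense gene. In 56 rows (13.5%) no exonic base was shared, but exons lay in introns of another row, 16 of them wholly inside the sense gene, where unspliced sense RNA would also be counted. The remaining 79 rows (19.0%) shared no exonic base and had none within the span of any other row placed on a single chromosome and strand. They are called clear rows below. Introns of rows placed on several chromosomes or strands were not checked. Counts of the clear rows are also given on their own in each comparison, because no exon of another row, and no intron that was checked, lies under their exons.

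Of the 416 rows, 405 had their sense gene in the table, and in all 401 pairs with a single position both genes lay on opposite strands. The antisense RNA overlapped the sense gene head to head, with both start sites in the overlap, in 121 pairs. It overlapped tail to tail in 100 pairs, lay inside the sense gene in 80 and spanned it in 12. Another 81 were divergent without overlap, with a median of 145 bases between both start sites, and 7 were convergent without overlap. Of the 79 clear rows, 69 were divergent. The exonic length ran from 264 to 12688 bases with a median of 2014, and 360 of the 412 placed rows had more than 1 exon. RefSeq (GRCh38.p14) lists 356 of the 416 as long non-coding RNAs under the same symbol and 44 under a newer one. It lists 6 as antisense RNAs, 5 as protein-coding genes and 4 as transcribed pseudogenes, and FBXO22-AS1 had no match.

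The start regions of 4 divergent clear rows are printed because both transcripts of each pair leave from 1 short stretch, while their distribution between the fractions differed from pair to pair. Each sequence is from RefSeq (GRCh38.p14), written 5′ to 3′ on the antisense strand. Capitals mark the bases between the start of the sense gene and the start of the antisense RNA, and lower case marks the first 50 bases of the antisense RNA. These 4 pairs were chosen after their values were seen, except TRIM52-AS1, which the naming rule gave. KMT2E encodes a SET-domain chromatin protein, URB1 a ribosome biogenesis factor and TRIM52 a tripartite-motif protein. The windows are chr7:105014092-105014204 (minus strand) for KMT2E-AS1, chr19:54448989-54449198 (minus strand) for LENG8-AS1, chr21:32393013-32393182 (plus strand) for URB1-AS1 and chr5:181261144-181261261 (plus strand) for TRIM52-AS1.
KMT2E-AS1: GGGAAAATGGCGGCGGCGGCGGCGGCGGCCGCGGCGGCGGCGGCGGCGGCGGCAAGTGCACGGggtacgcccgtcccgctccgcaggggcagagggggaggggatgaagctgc
LENG8-AS1: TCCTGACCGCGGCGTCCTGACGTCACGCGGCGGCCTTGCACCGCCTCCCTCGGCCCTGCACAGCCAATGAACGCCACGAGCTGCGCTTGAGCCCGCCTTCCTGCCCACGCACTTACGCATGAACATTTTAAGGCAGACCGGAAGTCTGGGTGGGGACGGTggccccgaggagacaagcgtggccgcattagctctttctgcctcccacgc
URB1-AS1: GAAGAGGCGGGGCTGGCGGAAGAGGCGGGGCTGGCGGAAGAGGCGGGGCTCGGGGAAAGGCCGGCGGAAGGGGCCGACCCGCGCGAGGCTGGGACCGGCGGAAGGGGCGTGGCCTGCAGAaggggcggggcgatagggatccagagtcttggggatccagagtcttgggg
TRIM52-AS1: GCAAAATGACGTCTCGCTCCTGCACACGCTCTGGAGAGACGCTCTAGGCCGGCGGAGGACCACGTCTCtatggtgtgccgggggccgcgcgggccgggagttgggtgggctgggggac
The starts lay 63 bases apart for KMT2E-AS1, 160 for LENG8-AS1, 120 for URB1-AS1 and 68 for TRIM52-AS1. Of these stretches, 85.7% of the KMT2E-AS1 bases, 65.6% of the LENG8-AS1 bases, 77.5% of the URB1-AS1 bases and 63.2% of the TRIM52-AS1 bases were G or C. RefSeq promoter windows (250 bases before to 50 after the start) matched 277 of the 416 members. The motif GGGCGG stood on either strand of 46.6% of these windows against 44.6% of all 27305 windows, CCAAT stood in 31.8% against 35.7%, and TATAAA in 6.50% against 12.0%. The median number of CpG dinucleotides per window was 19 in the members and 14 in all windows. These motif matches are descriptions of letters, not of bound sites.

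Total counts per library ran from 2321291 (PFA lamina replicate 2) to 8557777 (native lamina replicate 1). The nuclear RNAs MALAT1, NEAT1 and KCNQ1OT1 were higher in both nuclear than in both cytosolic libraries, and the mRNAs of GAPDH, ACTB and EEF1A1 the other way round. LMNB1, whose sequence the construct carries, reached 26168 to 96237 CPM (read counts scaled to library size, with TMM factors) in the lamina libraries against 3231 to 6382 in the fractions. Of genes known for this line, VIM, NEFL, NEFM, NEFH, INA and LHX1 were detected in all 8 libraries and PAX2 in 7. Of erythroid genes, which mark another line of the series, the globin genes HBG1, HBG2 and HBE1 had no count in any library, while GATA1 had 38 counts over 7 libraries. Of colorectal genes, which mark the HCT116 line, CDX2 was present at 9.34 to 48.4 CPM, VIL1 had 173 counts in all, 66 and 74 of them nuclear, and CDH17, KRT20 and CEACAM5 had 17, 7 and 1. PFA lamina replicate 1 stood apart from its partner. Its log2 CPM over all tested rows had a Pearson's r of 0.957 with cytosolic replicate 1, above its r of 0.911 with PFA lamina replicate 2, so counts and named calls of the PFA group against both fractions are also given without it.

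The members took 0.541% and 0.515% of all counts in the nuclear pair, 0.460% and 0.406% in the cytosolic pair, 0.484% and 0.515% in the native lamina and 0.404% and 0.554% in the PFA lamina libraries. The widest 95% Wilson interval ran from 0.544% to 0.564% (PFA lamina replicate 2). These intervals cover counting error only, since without molecular identifiers several reads can stem from 1 molecule. The rows LRRC75A-AS1 (15684 counts over the 8 libraries), VIM-AS1 (12446) and MIF-AS1 (10109) made up much of the cytosolic share. Without these 3, the nuclear shares were 0.504% and 0.463%, the cytosolic 0.338% and 0.261%, the native lamina 0.421% and 0.457% and the PFA lamina 0.327% and 0.481%. Both nuclear libraries lay above both cytosolic libraries on either count. The totals include LMNB1, with 177592 to 736084 counts in the lamina libraries against 20414 to 31391 in the fractions. This lowers the lamina shares relative to those of the fractions. The median row held 271.5 counts over the 8 libraries, and 139 rows held fewer than 200.

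The nuclear against the cytosolic fraction compares the scaled level of each row between both RNA pools, not its molecules per cell. RNA yields of the fractions were not used, so a row higher in the nuclear fraction can have more molecules in the cytosol. Rows are called nuclear or cytosolic in this relative sense. Among the members, 161 of 416 (38.7%) were higher in the nuclear fraction and 24 (5.77%) were lower, against 26.1% and 21.2% of all 16504 rows tested (quasi-likelihood test of edgeR at an adjusted p under 0.05 after Benjamini-Hochberg). The median log2 fold change was 0.97 over the members and 0.13 over all rows tested. Of the 390 sense genes tested, 92 were higher and 96 lower, with a median of -0.13. The lower calls fell from 24 to 9 or 10 without nuclear replicate 1 or 2, to 13 or 14 without cytosolic replicate 1 or 2, and to 12 with upper-quartile scaling, while the higher calls stayed between 108 and 186. Summed counts chose the members, so a row could enter through the group where it was high, and these counts describe the 416 rows and not all antisense RNAs.

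**Figure D1:**
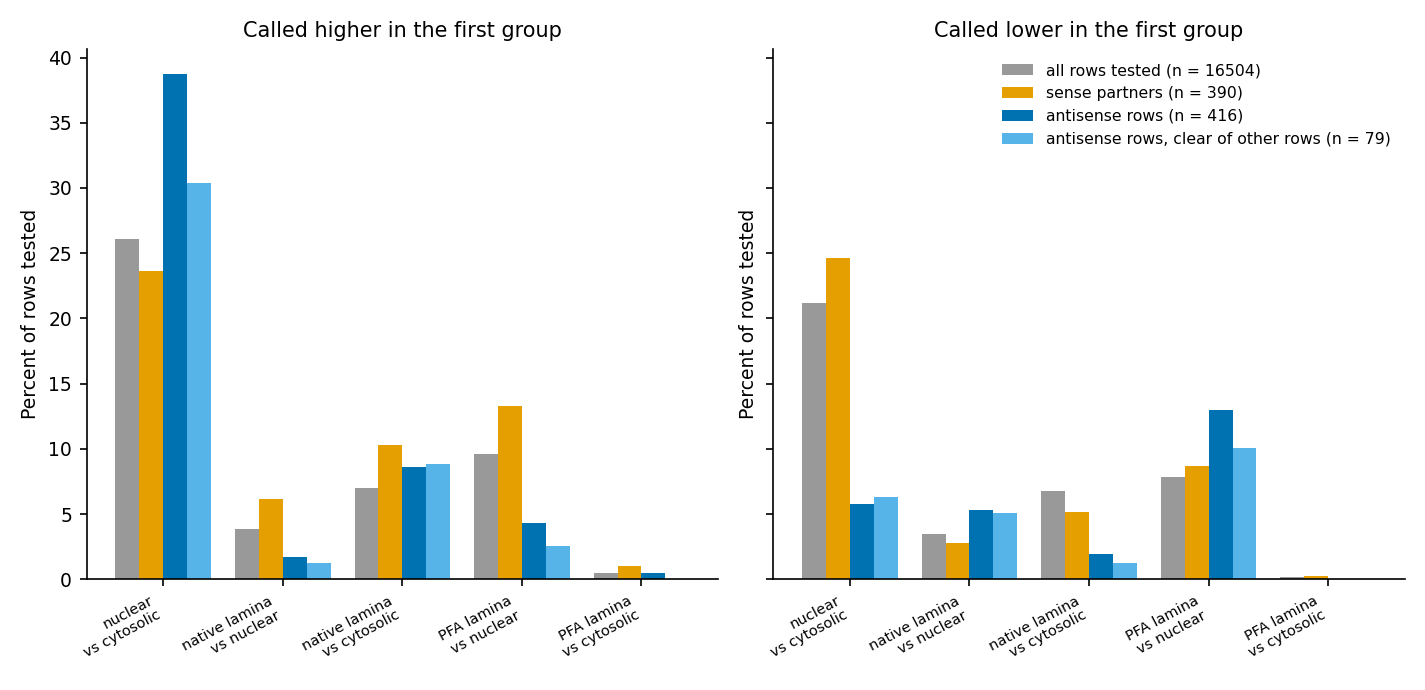
Share of rows called higher (left) or lower (right) in the first group of each comparison, in percent of rows tested, at an adjusted p under 0.05 in edgeR. Bars stand for all 16504 rows, the 390 sense genes, the 416 antisense rows and the 79 clear antisense rows. The antisense bars reach 38.7% for nuclear above cytosolic and 5.77% for the reverse.

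Of the 79 clear rows, 24 (30.4%) were higher in the nuclear fraction and 5 (6.33%) were lower, with a median log2 fold change of 0.71. The share of higher calls thus lay nearer to the 26.1% of all rows than the share over all members did. KMT2E-AS1 (chr7:104650989-104654588 of hg19, minus strand, 1 exon of 3600 bases, start 49 bases from that of KMT2E in hg19) had 59.1 and 63.7 CPM in the nuclear, 6.42 and 8.67 in the cytosolic, 13.3 and 21.7 in the native lamina and 7.95 and 20.2 in the PFA lamina libraries. Both nuclear libraries stood above all 6 others, and the log2 fold change against the cytosol was 3.04 ± 0.43 (SE, adjusted p = 6.50e-04). KMT2E itself was also higher in the nuclear fraction, at a log2 fold change of 1.27 ± 0.27.

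LENG8-AS1 had 14.0 and 11.2 CPM in the nuclear and 2.41 and 3.17 CPM in the cytosolic libraries, without overlap, a log2 fold change of 2.18 ± 0.47 (adjusted p = 0.00301). Its sense gene LENG8 changed in the same direction, by 1.92 ± 0.47. URB1-AS1 went the other way, with 2.18 and 3.78 CPM in the nuclear and 8.02 and 8.04 CPM in the cytosolic libraries and a log2 fold change of -1.43 ± 0.50 (adjusted p = 0.0328). URB1 gave 0.44 ± 0.35 and no call (adjusted p = 0.319). TRIM52-AS1 had 6.85 and 4.30 CPM in the nuclear and 10.4 and 9.94 CPM in the cytosolic libraries, at -0.87 ± 0.45 and no call (adjusted p = 0.128). TRIM52 was higher in the nuclear fraction by 2.62 ± 0.46. Both members of the KMT2E and LENG8 pairs were thus nuclear, while the URB1 and TRIM52 pairs had 1 called member each.

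CDKN2B-AS1, also known as ANRIL and linked to Polycomb silencing of the locus of the cell cycle inhibitor CDKN2B, was another clear row (chr9:21994790-22121093, 21 exons). It had 12.5 and 8.07 CPM in the nuclear and 2.67 and 2.33 CPM in the cytosolic libraries, with 5.82 and 3.83 in the native and 5.36 and 5.15 in the PFA lamina libraries. The nuclear libraries were the highest of the 8, and the log2 fold change against the cytosol was 2.02 ± 0.51 (adjusted p = 0.00641). DLX6-AS1, a transcript across the homeobox gene DLX6, had 5.76 and 3.44 CPM in the nuclear and 1.20 and 1.27 CPM in the cytosolic libraries and a log2 fold change of 1.88 ± 0.71 (adjusted p = 0.0415). DLX6 mRNA moved against it, at -1.73 ± 0.51 (adjusted p = 0.0146). EIF3J-AS1, divergent from a translation initiation factor gene, had 8.72 and 8.07 CPM in the nuclear and 5.88 and 11.2 CPM in the cytosolic libraries, groups that overlapped, and no call (adjusted p = 0.989).

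The clear rows lower in the nuclear fraction were BAIAP2-AS1, FAM83H-AS1, JHDM1D-AS1, TAPT1-AS1 and URB1-AS1. As over all members, these lower calls depended on single libraries. Fewer clear rows were called lower when any single nuclear or cytosolic library was left out. The median log2 fold change of the clear rows was then between 0.53 and 0.85. TAPT1-AS1 (chr4:16228286-16259810, 3 exons) had 22.6 and 31.6 CPM in the nuclear and 41.2 and 61.3 CPM in the cytosolic libraries, a log2 fold change of -0.92 ± 0.33 (adjusted p = 0.0339), and TAPT1 itself was higher in the nuclear fraction by 0.90 ± 0.32. BAIAP2-AS1, named after its values were seen, had 11.4 and 10.3 CPM in the nuclear and 31.8 and 20.1 CPM in the cytosolic libraries, at -1.27 ± 0.34 (adjusted p = 0.00933), while BAIAP2 moved by 1.02 ± 0.36. FAM83H-AS1 is listed by RefSeq as a protein-coding gene under another symbol, as are NCBP2-AS2, SPTY2D1-AS1, TNRC6C-AS1 and MMP24-AS1. Of these 5, FAM83H-AS1 gave -1.24 ± 0.42 (adjusted p = 0.0262) and NCBP2-AS2 gave -0.87 ± 0.45 with no call (adjusted p = 0.127). Values of SPTY2D1-AS1, TNRC6C-AS1 and MMP24-AS1 are not given here, so no tendency of the 5 can be read from this.

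**Figure D2:**
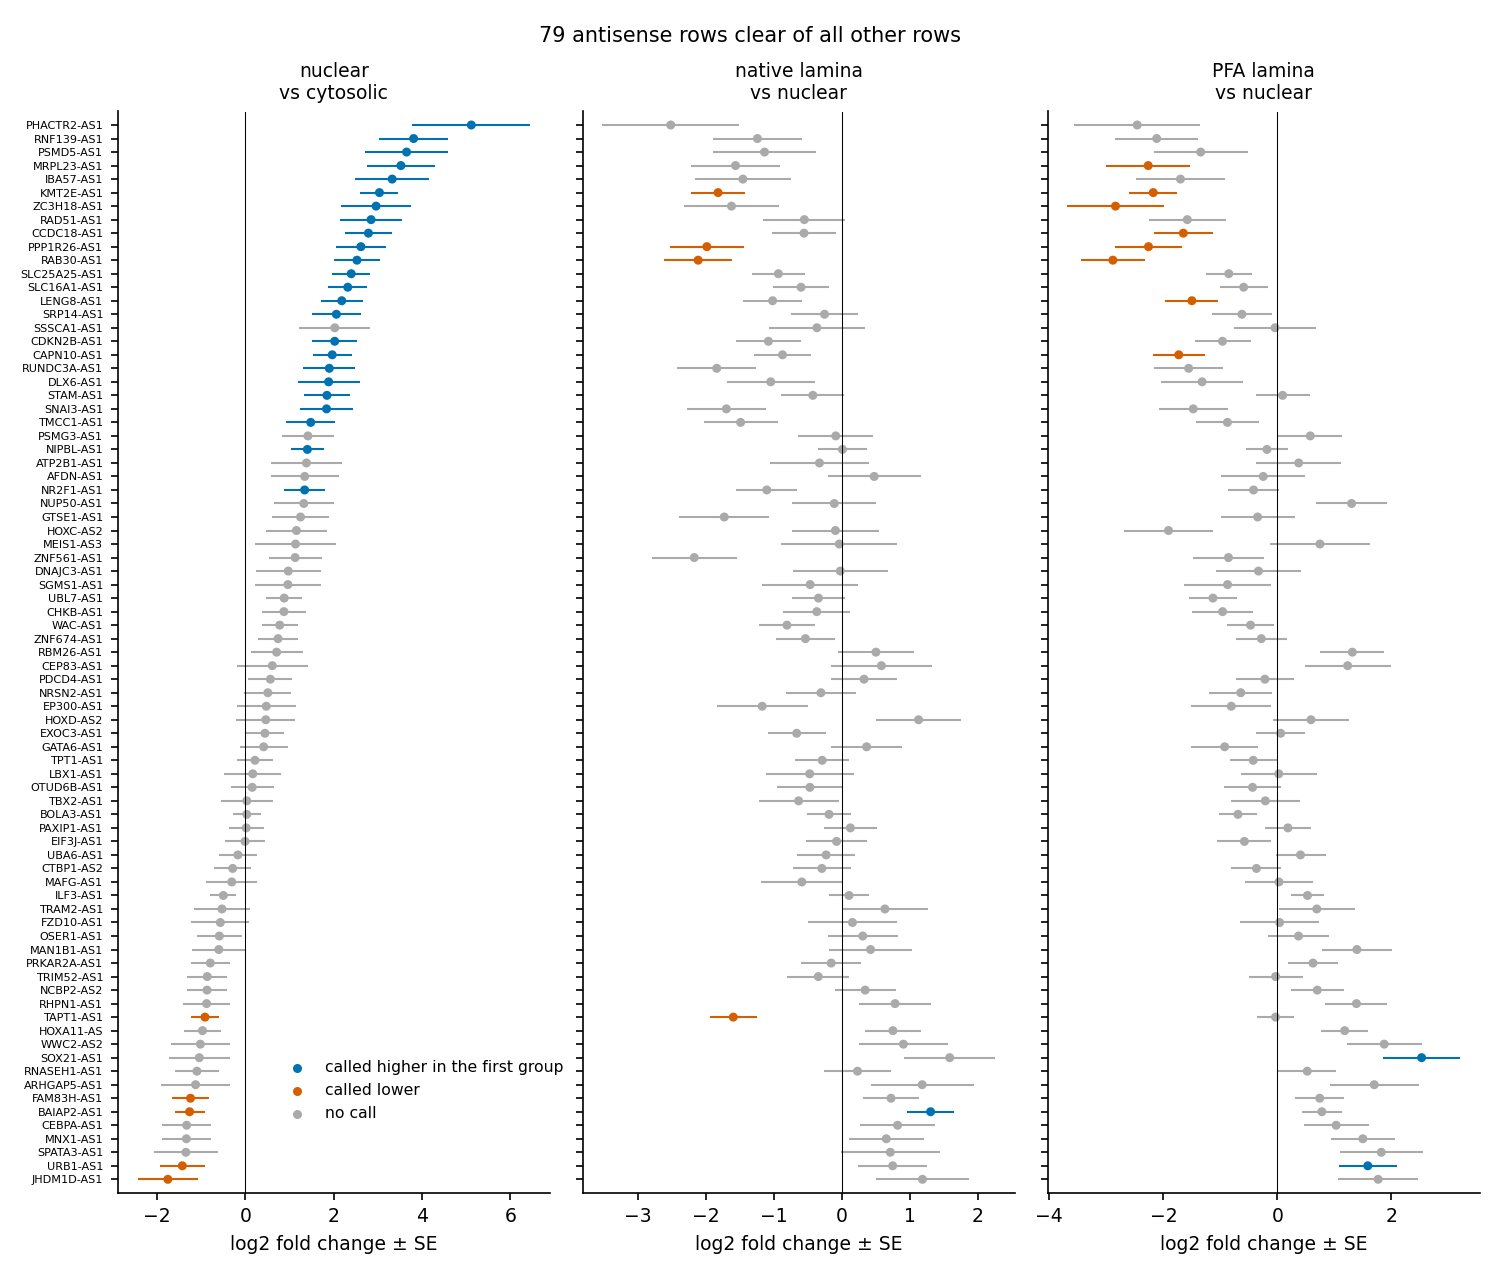
Log2 fold changes ± SE of the 79 clear rows, ordered by the nuclear against cytosolic comparison (left), for the native lamina (middle) and the PFA lamina (right) against the nuclear fraction. Blue points were called higher in the first group and orange points lower. There are 24 blue and 5 orange points on the left, 1 and 4 in the middle and 2 and 8 on the right.

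Among the 56 rows in introns of another row, 37 were higher in the nuclear fraction and 2 lower, against 26.1% and 21.2% of all rows. The median log2 fold change of this class was 2.56. ALKBH3-AS1 (chr11:43930839-43942494, 6 exons, tail to tail with the DNA repair gene ALKBH3) had 10.9 and 7.22 CPM in the nuclear libraries and no count in either cytosolic library. With a floor of 3 counts per library this is at least 17.5-fold higher (adjusted p = 9.27e-04), while ALKBH3 gave -0.15 ± 0.48 on the log2 scale and no call (adjusted p = 0.808). GAS8-AS1, a single exon inside the dynein regulatory gene GAS8, had 6.69 and 5.50 CPM in the nuclear libraries, also with no cytosolic count, and was at least 11.8-fold higher (adjusted p = 0.00121). SSBP3-AS1, inside SSBP3, had 9.80 and 6.87 CPM in the nuclear libraries against 0.134 and 0 in the cytosolic, at a log2 fold change of 6.37 ± 1.35 (adjusted p = 0.00278). In all 3 the groups stood far apart, and unspliced RNA of the sense gene was not told apart from antisense RNA.

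PSMA3-AS1, tail to tail with the proteasome gene PSMA3, had 42.3 and 37.5 CPM in the nuclear and 8.29 and 5.50 CPM in the cytosolic libraries, a log2 fold change of 2.51 ± 0.34 (adjusted p = 5.90e-04), and PSMA3 mRNA moved against it by -1.28 ± 0.32. LANCL1-AS1 rose by 6.16 ± 1.11 (adjusted p = 0.00139) and ITPK1-AS1 by 5.87 ± 1.08 (adjusted p = 0.00149), each beside a sense mRNA that fell, LANCL1 by -1.82 ± 0.28 and ITPK1 by -1.25 ± 0.32. In the cytosolic libraries LANCL1-AS1 had 1 and 0 counts and ITPK1-AS1 had 2 and 0, under the floor of 3, so the size of both changes is uncertain. Both rows lie in introns, and unspliced RNA of another row was not told apart from antisense RNA. The pairs of ALKBH3-AS1, LANCL1-AS1, GAS8-AS1 and ITPK1-AS1 showed the widest gaps in fitted log2 fold change with the antisense row above the sense gene, among the 128 pairs without shared exonic bases and with at least 100 sense counts. For ALKBH3-AS1 and GAS8-AS1 that order rests on fitted values over a group without counts, and for LANCL1-AS1 and ITPK1-AS1 on cytosolic counts under the floor. ARRDC3-AS1, head to head with the arrestin-domain gene ARRDC3, had 7.003 and 2.58 CPM in the nuclear and 3.34 and 2.54 CPM in the cytosolic libraries, groups that overlapped, and no call (adjusted p = 0.365).

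At the other end of those 128 pairs, the sense gene was the more nuclear of both. BBOX1-AS1 gave 0.30 ± 0.66 on the log2 scale, while BBOX1, a carnitine synthesis gene, had no cytosolic count and was at least 14.1-fold higher in the nuclear fraction by the same floor. RHPN1-AS1 gave -0.88 ± 0.54 against 1.97 ± 0.43 for RHPN1, and EPB41L4A-AS1, a snoRNA host, gave -0.56 ± 0.36 against 2.19 ± 0.48 for EPB41L4A. With TRIM52-AS1, these 4 antisense rows had no call, while the 4 sense genes were all called higher in the nuclear fraction.

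Among the 281 rows with shared exonic bases, 100 were higher in the nuclear fraction and 17 lower, against 26.1% and 21.2% of all rows. The median log2 fold change of this class was 0.80. PYCARD-AS1 shares 28.9% of its exonic bases with PYCARD, the adaptor of the inflammasome, and had 13.4 and 21.1 CPM in the nuclear against 0 and 0.211 in the cytosolic libraries. Its log2 fold change of 7.38 ± 1.47 (adjusted p = 0.00206) stood beside 6.99 ± 1.502 for PYCARD. GABPB1-AS1 had 82.8 and 70.4 CPM in the nuclear and 12.0 and 12.3 CPM in the cytosolic libraries, at 2.66 ± 0.41 (adjusted p = 8.01e-04), with no call for GABPB1 (-0.48 ± 0.31). MCM3AP-AS1 rose by 1.84 ± 0.34 (adjusted p = 0.00154), THAP9-AS1 by 1.85 ± 0.37 (adjusted p = 0.00223) and HOXA-AS2 by 2.48 ± 0.56 (adjusted p = 0.00372). MCM3AP and THAP9 had no call, at 0.25 ± 0.29 and 0.20 ± 0.45.

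The most abundant cytosolic members shared exons with abundant mRNAs. VIM-AS1 (32.2% of exonic bases shared with VIM, the vimentin gene) had 89.0 and 104 CPM in the nuclear and 397 and 478 CPM in the cytosolic libraries. Its log2 fold change of -2.18 ± 0.29 (adjusted p = 5.67e-04) lay beside -2.23 ± 0.31 for VIM. MIF-AS1 (25.6% shared with the cytokine gene MIF) had 59.3 and 143 CPM in the nuclear and 396 and 664 CPM in the cytosolic libraries, at -2.39 ± 0.43 (adjusted p = 0.00137) beside -2.46 ± 0.44 for MIF. PCNA-AS1, whose 384 exonic bases all lie in exons of the replication clamp gene PCNA, gave -2.17 ± 0.37 (adjusted p = 0.00107) beside -1.76 ± 0.34. FBXO22-AS1 shares 99.6% of its bases with FBXO22 and gave -1.31 ± 0.33 (adjusted p = 0.00684), where FBXO22 gave -0.29 ± 0.27. For these rows sense and antisense reads cannot be told apart.

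LRRC75A-AS1, a snoRNA host with 2.03% of its exonic bases shared, had the most counts of all members. It had 219 and 347 CPM in the nuclear, 392 and 645 in the cytosolic, 226 and 189 in the native lamina and 389.5 and 264 in the PFA lamina libraries. Its nuclear against cytosolic log2 fold change was -0.87 ± 0.35 with no call (adjusted p = 0.0560), while LRRC75A was higher in the nuclear fraction by 1.60 ± 0.43. FGD5-AS1 (3.54% shared, with NR2C2) had 49.5 and 62.0 CPM in the nuclear and 119 and 107 CPM in the cytosolic libraries and fell by 1.02 on the log2 scale in the nuclear fraction (adjusted p = 0.00846). RAD21-AS1, next to the cohesin gene RAD21, gave -2.43 ± 0.83 (adjusted p = 0.0294) from 1 to 7 nuclear counts. Its call was lost without nuclear replicate 2 (adjusted p = 0.194), without cytosolic replicate 1 or 2 (0.0518 and 0.102) and with upper-quartile scaling (0.0534). NNT-AS1 (-0.54 ± 0.33, adjusted p = 0.185) and ZEB1-AS1 (-0.66 ± 0.53, adjusted p = 0.323) had no call.

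**Figure D3:**
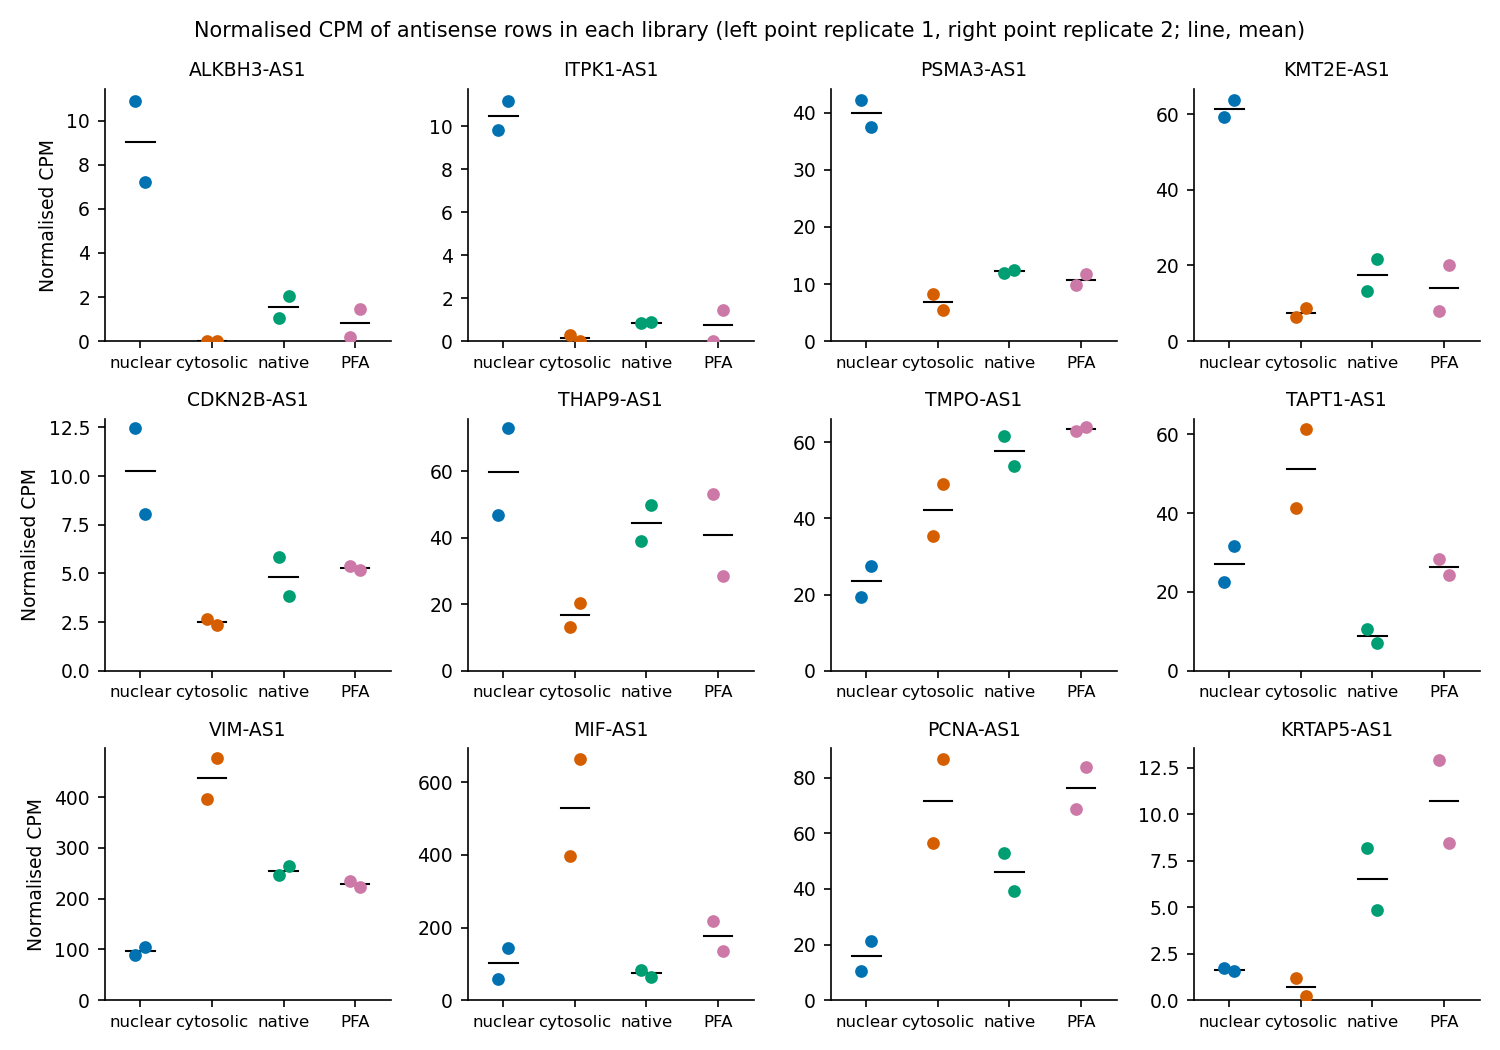
CPM after TMM scaling of 12 antisense rows in each of the 8 libraries, with a separate linear axis from 0 for each row. Points are libraries, replicate 1 on the left and replicate 2 on the right, and the line is the mean of both. ALKBH3-AS1 had no count in either cytosolic library, and KRTAP5-AS1 had its 4 highest values in the 4 lamina libraries.

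Pairs of antisense and sense rows were then compared by their nuclear against cytosolic log2 fold changes. In 300 of 398 tested pairs the antisense row was the more nuclear, with a median difference of 0.81 on the log2 scale. Pairs were divided by the share of antisense exonic bases that are also exonic in any other row, which is not always the sense gene. In the 131 pairs without such a base, Pearson's r across pairs was -0.01, and the antisense row was above in 101 with a median difference of 1.48. With up to 10% of antisense bases shared (84 pairs) r was 0.37, with 10 to 50% (151 pairs) it was 0.76, and above 50% (32 pairs) it was 0.88. In those 32 pairs the antisense row was above in 16. These correlations are across pairs in the same 8 libraries, where both rows of an overlapping pair also share reads, and pairs are not replicates. Over the 75 clear pairs r was 0.17, the antisense row was above in 53 and the median difference was 0.71.

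By calls, both rows were higher in the nuclear fraction in 61 of the 398 pairs and both lower in 13. The antisense row was higher and the sense gene lower in 25 pairs, 19 of them without a shared exonic base, and the reverse held in 2. In 13 of these 19 the antisense exons lay in introns of another row, where unspliced RNA of that row would also be counted. The other 6 were clear pairs, as were the 2 of the reverse. In another 70 pairs the antisense row was higher and the sense gene had no call. Of the 151 pairs with 10 to 50% shared bases, none combined a higher antisense row with a lower sense gene.

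**Figure D4:**
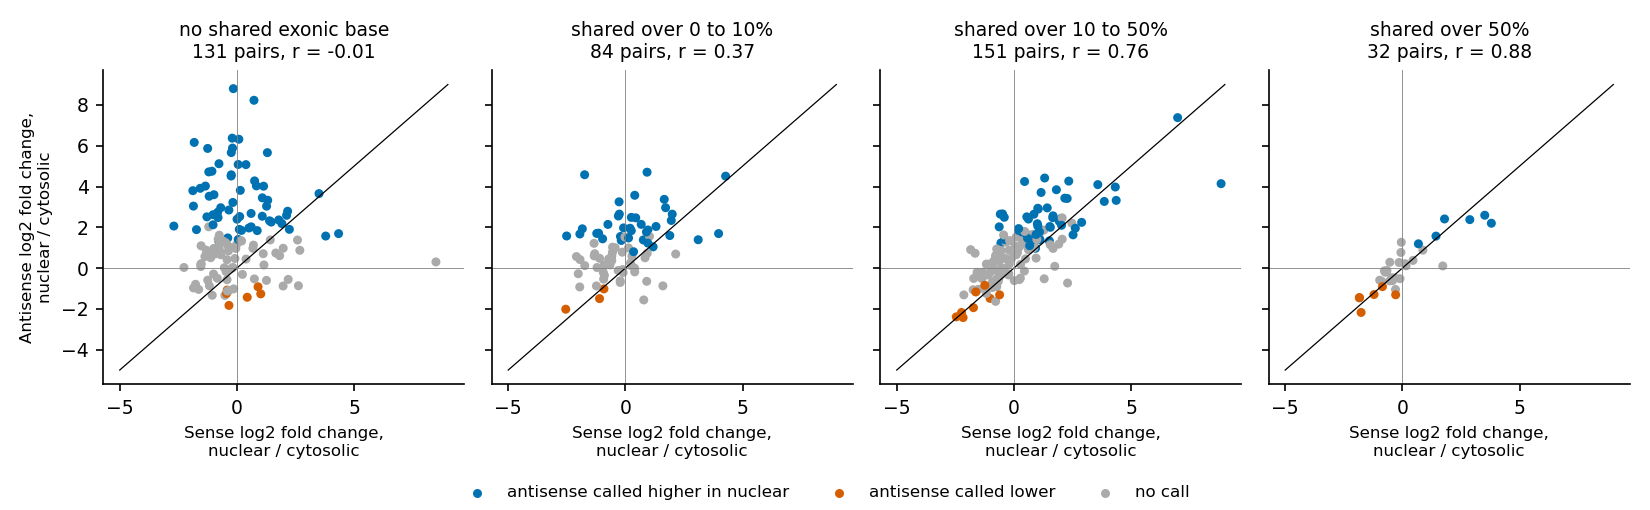
Nuclear against cytosolic log2 fold change of each antisense row (vertical axis) against that of its sense gene (horizontal axis), in 4 panels by the percent of antisense exonic bases shared with any other row. Each point is 1 pair, the diagonal marks equal values, and colour marks the call of the antisense row. Points scatter with r = -0.01 in the first panel (131 pairs) and lie along the diagonal with r = 0.88 in the last (32 pairs).

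The level of the antisense row relative to its sense gene was taken as CPM per exonic kb. Over the 405 pairs, the median antisense level was 61.7% and 56.5% of the sense level in the nuclear libraries, against 30.0% and 23.9% in the cytosolic libraries. It was 37.1% and 38.0% in the native lamina and 30.8% and 42.0% in the PFA lamina libraries. Over the 76 clear pairs the medians were lower, at 36.1% and 34.6% nuclear, 21.1% and 16.8% cytosolic, 24.9% and 24.7% native lamina and 23.3% and 29.0% PFA lamina. In both sets the nuclear libraries stood above all others. Rows in introns (56 pairs) had the widest spread, from 67.5% in nuclear replicate 1 to 4.41% in cytosolic replicate 2, and PFA lamina replicates 1 and 2 stood at 8.25% and 26.8%.

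**Figure D5:**
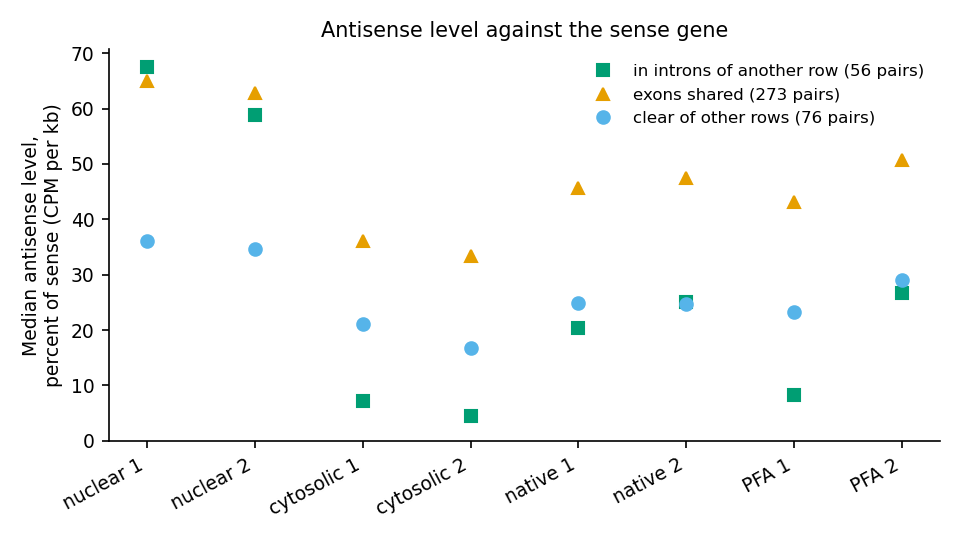
Median antisense level in percent of the sense level (CPM per exonic kb, linear axis from 0) in each of the 8 libraries, for the 56 pairs in introns, the 273 pairs with shared exons and the 76 clear pairs. Clear pairs run from 16.8% (cytosolic replicate 2) to 36.1% (nuclear replicate 1).

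The native lamina RNA was set against the nuclear fraction to ask which RNAs the labelling recovered more or less of. Of the 416 members 7 (1.68%) were higher and 22 (5.29%) lower in the native lamina, against 3.87% and 3.44% of all rows tested. The median log2 fold change was -0.45 over the members and -0.07 over all rows. Scaling by library totals alone moved the median of all rows up by 0.28 and turned the split to 13 higher and 11 lower (54.2% of calls higher against 24.1%), while the members stayed 0.37 below the median of all rows, against 0.38 with TMM. These calls rest on few libraries. Without nuclear replicate 1 or 2 there were none, without native lamina replicate 1 there was 1 higher and 0 lower, without native lamina replicate 2 there were 0 and 1, and without PFA lamina replicate 1 or 2 there were 18 higher and 86 or 87 lower.

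Of the 79 clear rows, 1 (1.27%) was higher and 4 (5.06%) were lower in the native lamina, with a median of -0.31. The clear rows lower in the native lamina were KMT2E-AS1, PPP1R26-AS1, RAB30-AS1 and TAPT1-AS1, and the clear row that was higher was BAIAP2-AS1. KMT2E-AS1 fell to a log2 fold change of -1.82 ± 0.40 (adjusted p = 0.0233) and RAB30-AS1, named after its values were seen and divergent from a small GTPase gene, to -2.11 ± 0.50 (adjusted p = 0.0302). TAPT1-AS1 had 10.7 and 7.07 CPM in the native lamina against 22.6 and 31.6 in the nuclear and 41.2 and 61.3 in the cytosolic libraries. It was the member called lower than both fractions, by -1.59 ± 0.34 against the nuclear (adjusted p = 0.0220) and -2.51 ± 0.35 against the cytosolic fraction (adjusted p = 0.00427). The PFA lamina libraries had 28.5 and 24.3 CPM, inside the range of the fractions. BAIAP2-AS1 had 21.8 and 32.0 CPM in the native lamina against 11.4 and 10.3 in the nuclear libraries, at 1.31 ± 0.34 (adjusted p = 0.0391), while its cytosolic libraries had 31.8 and 20.1 CPM.

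Of the 22 lower rows 10 were among the 56 in introns of another row, and no row of that class was higher. Over all rows tested, 3.44% were lower and 3.87% higher. In rows of that class unspliced RNA of another row was not told apart from antisense RNA. PRKCA-AS1, inside the protein kinase C gene PRKCA, had 0.312 and 0.442 CPM in the native lamina against 6.23 and 8.42 in the nuclear libraries, a log2 fold change of -4.23 ± 0.99 (adjusted p = 0.0292). ITPK1-AS1, inside an inositol kinase gene, had 0.832 and 0.884 against 9.80 and 11.2 CPM, at -3.58 ± 0.84 (adjusted p = 0.0295). IGF2BP2-AS1 gave -3.50 ± 0.89 (adjusted p = 0.0362) and ATP11A-AS1 -3.20 ± 0.91 (adjusted p = 0.04997). Their sense genes PRKCA, ITPK1, IGF2BP2 and ATP11A had no call, at 0.72 ± 0.27, 0.48 ± 0.32, 0.26 ± 0.30 and 0.28 ± 0.30. All native lamina values of these 4 rows lay below both nuclear values. The call of ATP11A-AS1 was also lost without either cytosolic replicate (adjusted p = 0.0534 and 0.0531) and with the 3 other scalings (adjusted p from 0.0514 to 0.0736).

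The rows higher in the native lamina were CCND2-AS1, PCNA-AS1, VIM-AS1, SMARCA5-AS1, TMPO-AS1, MDC1-AS1 and BAIAP2-AS1. CCND2-AS1, head to head with the cyclin gene CCND2, had 20.5 and 25.3 CPM against 5.29 and 7.90 in the nuclear and 24.5 and 26.2 in the cytosolic libraries, a log2 fold change over the nuclear fraction of 1.79 ± 0.34 (adjusted p = 0.0142). TMPO-AS1, head to head with the gene of the lamina-associated polypeptide LAP2, had 61.6 and 53.6 CPM against 19.5 and 27.5 in the nuclear and 35.3 and 49.1 in the cytosolic libraries, at 1.30 ± 0.29 over the nuclear fraction (adjusted p = 0.0264). Both native lamina libraries of TMPO-AS1 stood above the fractions, but against the cytosol there was no call (0.45 ± 0.29, adjusted p = 0.296). SMARCA5-AS1, inside the chromatin remodeller gene SMARCA5, gave 1.38 ± 0.30 (adjusted p = 0.0233), VIM-AS1 1.40 ± 0.28 (adjusted p = 0.0171) and PCNA-AS1 1.54 ± 0.37 (adjusted p = 0.0300). Except BAIAP2-AS1, these 7 rows share exonic bases with another row. Of the sense genes, CCND2 (1.25 ± 0.32) and MDC1 (1.23 ± 0.29) were also called higher, and TMPO gave 0.73 ± 0.28 with no call (adjusted p = 0.103).

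Against the cytosolic fraction, 36 members (8.65%) were higher and 8 (1.92%) lower in the native lamina, beside 6.99% and 6.77% of all rows. The median log2 fold change was 0.51 over the members and 0.10 over all rows, and no member was called higher than both fractions. Of the clear rows 7 (8.86%) were higher and 1 (1.27%) lower, with a median of 0.20. Without cytosolic replicate 1 or 2 the counts were 3 and 2 or 0 and 2, without native lamina replicate 1 or 2 they were 12 and 2 or 3 and 2, without either nuclear replicate 19 and 8, and without PFA lamina replicate 1 or 2 they were 76 and 14 or 78 and 13. CELF2-AS1, in introns of the splicing regulator gene CELF2, had 4.68 and 5.16 CPM in the native lamina against 0.401 and 0.423 in the cytosolic libraries, at 3.52 ± 0.74 (adjusted p = 0.0112). SSBP3-AS1 gave 4.70 ± 1.44 (adjusted p = 0.0454), DNAH17-AS1 3.61 ± 0.97 (adjusted p = 0.0284) and PSMD6-AS2 3.34 ± 0.88 (adjusted p = 0.0270). On the lower side, MIF-AS1 had 83.3 and 65.1 CPM, at -2.84 ± 0.44 (adjusted p = 0.00503), next to -2.88 ± 0.45 for MIF. DGUOK-AS1, tail to tail with a mitochondrial deoxynucleoside kinase gene, had 1.04 and 1.03 CPM against 8.82 and 9.30 in the cytosol, at -3.10 ± 0.62 (adjusted p = 0.0100), and PITPNA-AS1 gave -1.85 ± 0.46 (adjusted p = 0.0205). Of the 8 rows from SSBP3-AS1 to PITPNA-AS1 and TAPT1-AS1, the calls of MIF-AS1 and TAPT1-AS1 held without each cytosolic replicate and the other 6 did not. LRRC75A-AS1 and EPB41L4A-AS1 were lower as well, by -1.32 ± 0.36 (adjusted p = 0.0287) and -1.37 ± 0.37 (adjusted p = 0.0299). Both of these calls were lost when any single cytosolic or native lamina library was left out.

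The PFA lamina against the nuclear fraction gave 18 members higher (4.33%) and 54 lower (13.0%), beside 9.63% and 7.81% of all rows. The median log2 fold change was -0.55 over the members and -0.04 over all rows. With library totals the split was 18 higher and 23 lower (43.9% of calls higher against 25.0%), the median of all rows moved up by 0.17, and the members lay 0.51 below it, against 0.52 with TMM. Without nuclear replicate 1 no member was called, without nuclear replicate 2 there were 2 higher and 7 lower, without PFA lamina replicate 1 there were 5 and 9, and without PFA lamina replicate 2 there were 27 and 120. Per library, the members' median against the nuclear fraction was -0.62 in PFA lamina replicate 1 and -0.35 in replicate 2. The comparisons of both lamina groups with the nuclear fraction share the nuclear libraries, so their values are given side by side and not counted together.

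Among the 79 clear rows, 2 (2.53%) were higher in the PFA lamina and 8 (10.1%) lower, with a median of -0.25. With PFA lamina replicate 1 left out there were 0 higher and 2 lower, KMT2E-AS1 and RAB30-AS1, with a median of -0.15. KMT2E-AS1 fell to -2.18 ± 0.42 (adjusted p = 0.00895), RAB30-AS1 to -2.89 ± 0.56 (adjusted p = 0.00913) and LENG8-AS1 to -1.499 ± 0.47 (adjusted p = 0.0425). URB1-AS1 had 9.05 and 8.83 CPM against 2.18 and 3.78 in the nuclear libraries and was higher by 1.59 ± 0.51 (adjusted p = 0.0482). SOX21-AS1, named after its values were seen, had 6.84 and 4.41 CPM against 1.25 and 0.687, at 2.53 ± 0.68 (adjusted p = 0.0255), and the neural transcription factor gene SOX21 gave 2.27 ± 0.72. Without PFA lamina replicate 1 the adjusted p was 0.0364 for KMT2E-AS1 and 0.0358 for RAB30-AS1, while the calls of LENG8-AS1 (0.203), URB1-AS1 (0.134) and SOX21-AS1 (0.127) were lost.

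All 24 called rows among the 56 in introns were lower in the PFA lamina, with a median of -1.70 over the class. Over all rows tested, 7.81% were lower and 9.63% higher. Only 3 such rows, all lower, were called without PFA lamina replicate 1, and the median over the 56 was then -1.15. LANCL1-AS1 had 0 and 0.368 CPM in the PFA lamina against 8.56 and 5.84 in the nuclear libraries, at -5.61 ± 1.15 (adjusted p = 0.0106), while LANCL1 mRNA was higher by 1.19 ± 0.27. EIF1AX-AS1, inside a translation factor gene, gave -4.79 ± 1.01 (adjusted p = 0.0111) and ITPK1-AS1 -4.20 ± 1.00 (adjusted p = 0.0174). PSMA3-AS1 had 9.79 and 11.8 CPM and a log2 fold change of -1.90 ± 0.34 (adjusted p = 0.00754), beside -1.70 ± 0.32 in the native lamina (adjusted p = 0.0142). Of the rows with shared exons, EGFR-AS1 had 0.370 and 0 CPM in the PFA lamina but 3.64 and 3.83 in the native lamina and 4.05 and 6.01 in the nuclear libraries, at -4.29 ± 1.19 (adjusted p = 0.0292). GABPB1-AS1 fell to -2.27 ± 0.41 (adjusted p = 0.00754) and MCM3AP-AS1 to -1.66 ± 0.35 (adjusted p = 0.0111). In LANCL1-AS1, EIF1AX-AS1 and ITPK1-AS1 PFA lamina replicate 1 was at 0 and replicate 2 above 0. Without PFA lamina replicate 1 the adjusted p was 0.0534 for LANCL1-AS1, 0.0535 for EIF1AX-AS1, 0.0597 for ITPK1-AS1, 0.0716 for EGFR-AS1 and 0.0534 for MCM3AP-AS1, and the calls of PSMA3-AS1 (0.0316) and GABPB1-AS1 (0.0239) remained.

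The rows higher in the PFA lamina included HOXC13-AS, PCNA-AS1, PRMT5-AS1, TMPO-AS1, CCND2-AS1, VIM-AS1 and FGD5-AS1. HOXC13-AS, head to head with a homeobox gene of the HOXC cluster, had 13.7 and 9.56 CPM against 2.18 and 1.03 in the nuclear libraries, at 2.84 ± 0.58 (adjusted p = 0.0104), and HOXC13 gave 2.56 ± 0.39. PRMT5-AS1, tail to tail with an arginine methyltransferase gene, had 74.1 and 58.1 against 18.8 and 18.0 CPM, at 1.85 ± 0.36 (adjusted p = 0.00913), and PRMT5 gave 2.13 ± 0.42. PCNA-AS1 had 68.9 and 83.9 against 10.4 and 21.3 CPM, at 2.27 ± 0.37 (adjusted p = 0.00688), beside 1.24 ± 0.33 for PCNA. TMPO-AS1 had 62.8 and 64.0 CPM, at 1.43 ± 0.30 (adjusted p = 0.0110). CCND2-AS1 rose by 1.43 ± 0.35 (adjusted p = 0.0194), VIM-AS1 by 1.24 ± 0.28 (adjusted p = 0.0147) and FGD5-AS1 by 0.95 ± 0.27 (adjusted p = 0.0321). When PFA lamina replicate 1 was left out, the calls of HOXC13-AS (adjusted p = 0.0347), PRMT5-AS1 (0.0260), PCNA-AS1 (0.00351), TMPO-AS1 (0.0254) and VIM-AS1 (0.0411) remained, and those of CCND2-AS1 (0.0936) and FGD5-AS1 (0.146) were lost.

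KRTAP5-AS1, which runs through a cluster of keratin-associated protein genes on chromosome 11 (chr11:1593971-1620414, 46.2% of exonic bases shared with KRTAP5-2), had 12.9 and 8.46 CPM in the PFA lamina and 8.21 and 4.86 in the native lamina. The nuclear libraries had 1.71 and 1.55 CPM and the cytosolic 1.20 and 0.211, so all 4 lamina libraries stood above all 4 fraction libraries. It was the 1 member called higher than both fractions in the PFA lamina, by 2.71 ± 0.64 against the nuclear (adjusted p = 0.0169) and 3.76 ± 0.70 against the cytosolic fraction (adjusted p = 0.0429). In the native lamina it was higher than the cytosol by 3.05 ± 0.69 (adjusted p = 0.0150), with no call against the nuclear fraction (2.00 ± 0.63, adjusted p = 0.0656). The call against the cytosol was lost without any 1 of the 4 fraction libraries (adjusted p from 0.0618 to 0.266), and that against the nuclear fraction without nuclear replicate 1 (0.137), nuclear replicate 2 (0.0955) or PFA lamina replicate 1 (0.0604). The nuclear and cytosolic values rest on 1 to 11 counts per library.

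The PFA lamina against the cytosolic fraction gave 2 members higher (0.481%) and 0 lower, beside 0.527% and 0.145% of all rows. The second was SLC25A21-AS1, with 6.65 and 8.46 CPM in the PFA lamina against 0.535 and 1.06 in the cytosolic libraries, at 3.27 ± 0.65 (adjusted p = 0.0471). Its adjusted p without PFA lamina replicate 1 was 0.00450, and that of KRTAP5-AS1 was 0.00705. At an unadjusted p under 0.05 there were 64 higher and 9 lower, and DESeq2's Wald test called 13 and 2. Without PFA lamina replicate 1 there were 59 higher and 2 lower, without PFA lamina replicate 2 there were 1 and 0, without native lamina replicate 1 there were 1 and 0, and without any 1 of the fraction libraries there were none. For fits with a library left out, the share called over all rows is not given. Their counts, also for the clear rows below, thus do not show whether a change was particular to the members. The median of the members was 0.43, against 0.08 over all rows, and per library it was 0.13 in PFA lamina replicate 1 and 0.58 in replicate 2. No clear row was called, with a median of 0.35, and without PFA lamina replicate 1 there were 12 higher and 0 lower.

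No member was called between the PFA and the native lamina, as was 0% of all rows tested with edgeR. At an unadjusted p under 0.05 there were 10 members higher and 14 lower in the PFA lamina. DESeq2's Wald test called 1 higher and 0 lower, and edgeR without the filter on low counts 2 and 2. Without PFA lamina replicate 2 there were 4 higher and 8 lower, and without PFA lamina replicate 1 there were none. The median of the members was -0.04, against 0.06 over all rows, and changed sign to 0.12 without PFA lamina replicate 1. Over the clear rows, with no call, it was 0.12.

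Lamina-associated domains were mapped by the study in another line, HCT116, a colorectal carcinoma line, and only the position of the members in the deposited hg19 intervals was used. Of the 412 placed members 8 lay wholly in a domain in G1, 7 in S, 14 in G2 and 6 in all 3 stages. Of all 14561 placed rows with at least 100 counts over the 8 libraries, 1.57%, 1.31%, 2.44% and 1.07% did so. The 14 members inside a domain of any stage included CELF2-AS1, CELF2-AS2, ZNF529-AS1, ZNF571-AS1, ZNF790-AS1 and NCAM1-AS1, and these 6 were the ones called higher in the nuclear fraction. ZNF571-AS1 and CELF2-AS2 gave 3.84 ± 0.68 (adjusted p = 0.00126) and 5.66 ± 1.14 (adjusted p = 0.00213). None of the 14 was called lower, and their median of 1.27 compares with 0.97 over all members. Of all 416 members, 161 were called higher and 24 lower, and of all rows tested 26.1% and 21.2%. The 6 of 14 thus lie near the share over all members, and a link to domain position was not tested.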

How the data were processed

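RNA was measured in 8 libraries of 4 groups. For each gene symbol the deposited tables give read counts, made with featureCounts on hg19 and the RefFlat annotation, ignoring strand and counting a read for each row it overlaps, per the file headers. In the file of cytosolic replicate 1 the header's output name belongs to nuclear replicate 1, but the input named there is cytosolic replicate 1, and its values lie closest to cytosolic replicate 2. The submitters' processing notes name TopHat2 2.1.1, Bowtie2 2.3.2, Subread 1.5.2, edgeR 3.24.3, R 3.5.2 and 3.5.1 and bedtools 2.26.0 without their roles. The domain lists are intervals without scores, per the labels made in HCT116.

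Rows were filtered with filterByExpr by group, which kept 16504 rows and all 416 members, and tested in edgeR 4.0.16 under R 4.3.3 by the quasi-likelihood test after TMM scaling, fitting 1 mean per group to all 8 libraries together without a block. The 6 contrasts were each adjusted by Benjamini-Hochberg over all rows tested, and an adjusted p under 0.05 is a call. Printed log2 fold changes carry the standard error (SE) of the fit, and an exact permutation test of 2 against 2 libraries could not go below 0.333. A count of 3 per library is the floor, 0.351 to 1.29 CPM by library totals. Precision follows depth, 2321291 to 8557777 counts per library.

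The members, the lists and the tests were chosen with earlier results of these data known. Members were named by rule: up to 4 called rows per contrast and direction with the largest fold change, given 20 or more counts in both libraries of the higher group, the 5 with most counts in all and per kb, the 4 widest gaps to the sense gene in each direction, and a list of 15 symbols. KMT2E-AS1, LENG8-AS1, URB1-AS1, BAIAP2-AS1, FAM83H-AS1, NCBP2-AS2, RAB30-AS1 and SOX21-AS1, and members listed by symbol within a small count, were named after their values were seen. A member that the rule names is not reported here. Alternatives were other scalings, no filter, a replicate block, DESeq2 1.42.0, fewer libraries and subsets of members. Counts by class without 1 library, and single calls without PFA lamina replicate 1, were added after seeing the data. DNA libraries, chromatin libraries and 4 samples whose labels contradict each other were not analysed here.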

Additional observations from a re-analysis of the deposited data

How the results depend on the processing

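With 2 libraries per group, the number of members called depended on single libraries in all comparisons with a lamina group. So did the number of members lower in nuclear than in cytosolic. Leaving out 1 library at a time gave, for members higher and lower, 108 to 185 and 9 to 34 (nuclear against cytosolic), 0 to 18 and 0 to 87 (native lamina against nuclear), 0 to 78 and 2 to 14 (native lamina against cytosolic), 0 to 27 and 0 to 120 (PFA lamina against nuclear), 0 to 59 and 0 to 2 (PFA lamina against cytosolic) and 0 to 4 and 0 to 8 (PFA against native lamina). A group left with 1 library was assumed to vary like the others. The share called over all rows in these fits is not given. Where leaving out a PFA library raised the counts in other comparisons, the estimate of the spread had lost that library.

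Among other settings, upper-quartile scaling gave 12 members lower in nuclear than cytosolic. Library totals gave 13 higher and 11 lower for native lamina against nuclear, 5 lower for native lamina against cytosolic and 23 lower for PFA lamina against nuclear. Without the filter there were 13 and 60 (native lamina against nuclear), 62 higher (native lamina against cytosolic), 82 lower (PFA lamina against nuclear), 31 and 1 (PFA lamina against cytosolic) and 2 and 2 (PFA against native lamina). Fits of only the 4 libraries compared gave 23 and 93, 64 higher, 5 and 11, and 1 higher, for the first 4 lamina comparisons in the same order. DESeq2 size factors gave 1 higher for PFA lamina against cytosolic. DESeq2's Wald test gave 13 and 2 there and 1 higher for PFA against native lamina. The causes were not tested.

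With a replicate block, native lamina against nuclear gave 10 higher and 36 lower, and it changed no other count by over 1.5 times. Same-numbered libraries deviated together with r from -0.0674 (cytosolic and PFA lamina) to 0.321 (both lamina groups), so the numbers were not taken to pair the libraries. Of 34 calls named by size in a contrast, 230 of 238 repeats under settings other than a left-out library kept the call, but only 183 of 272 repeats without 1 library did and 89 lost it. None of the 34 changed direction. The median of members between the PFA and the native lamina changed sign, from -0.04 to 0.12 without PFA lamina replicate 1. Members clear of other rows alone had medians of 0.71, -0.31, 0.20, -0.25, 0.35 and 0.12 in the order of comparisons above.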

Other observations

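Intergenic long RNAs were set beside the antisense rows as another class of long non-coding RNA. Of 118 rows with a LINC symbol and at least 100 counts, 53 were nuclear and 3 cytosolic by the test between the fractions, 44.9% and 2.54%, with a median log2 fold change of 1.45. The antisense rows had 38.7% and 5.77% with a median of 0.97, and all rows tested 26.1% and 21.2% with a median of 0.13. Against the nuclear fraction, 0 LINC rows were higher and 8 (6.78%) lower in the native lamina (median -0.58), beside 3.87% and 3.44% of all rows. In the PFA lamina 2 (1.69%) were higher and 22 (18.6%) lower (median -0.81), beside 9.63% and 7.81%. The difference between both classes was not tested.

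By exonic length, the nuclear calls rose in number from 42 of the 139 shortest antisense rows (under 1441 bases) through 51 of the 138 middle rows to 68 of the 139 longest (over 2599 bases), with median log2 fold changes of 0.76, 0.88 and 1.34. Over all rows tested 26.1% were called higher, with a median of 0.13, and the shortest rows lay nearest to that share. Longer rows also collect more reads, so the number of calls and the power of the test cannot be told apart here. Over the 62 clear rows whose start lay within 1000 bases of the sense start, 14 were higher and 4 lower, with a median of 0.31. The 14 make up 22.6% of the 62, below the 26.1% of all rows called higher. Lower calls, 4 of the 62, were also rarer than the 21.2% over all rows. The median of 0.31 lay above the 0.13 over all rows.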
